A study of Mus musculus with 6 samples.

Results

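The genes described here are 9 genes of lysophosphatidic acid (LPA) signaling, taken by symbol from the 56748 gene identifiers of the count table: the receptors *Lpar1*, *Lpar2*, *Lpar3*, *Lpar4*, *Lpar5* and *Lpar6*, and the enzyme genes *Enpp2*, *Plpp1* and *Plpp3*. All 9 were among the 18188 genes that passed the filter on low counts. The pathway was selected on the same LiCl and control counts, since the large difference of *Lpar3* between these samples was already known, and its genes were then listed by symbol. Their differences between LiCl and control are therefore given as a description and without printed p-values. Where a threshold on the adjusted p is applied to these 9 genes, it too serves as a description and not as a test. The samples were ureters of wildtype NMRI mouse embryos, explanted at E12.5 and cultured on transwell membranes for 18 h, with either water (control) or 15 mM LiCl, which activates WNT signaling through inhibition of the kinase GSK3B (3 samples per group). Values of single samples are listed in the order of the replicate numbers. All samples shared genotype, stage and culture time. How many ureters made up a sample is not given in the sources used here, so the spread between samples may be partly technical. The whole ureter was sequenced, so each value combines epithelium, mesenchyme and the other cells of the explant, and fewer cells of a type and less RNA per cell cannot be told apart.

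LPA is a small phospholipid that acts outside the cell. Autotaxin, the secreted enzyme encoded by *Enpp2*, makes it from lysophosphatidylcholine, and the lipid phosphate phosphatases encoded by *Plpp1* and *Plpp3* at the cell surface remove its phosphate. The receptors fall into 2 families of G protein-coupled receptors. *Lpar1*, *Lpar2* and *Lpar3* belong to the EDG family, which also holds the sphingosine-1-phosphate (S1P) receptors, whereas *Lpar4*, *Lpar5* and *Lpar6* are related to the P2Y purinergic receptors. Through G12/13, Gq/11 and Gi proteins they act on calcium, cAMP and the cytoskeleton, and the transcription factors SRF and YAP are among the known effectors. Serum carries LPA. The medium on the sample labels of these cultures lists no serum.

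Total counts per sample lay between 28473436 and 31266945. Skeletal muscle genes set LiCl replicates 1 and 3 apart. The summed level of 8 muscle markers was 35.8 and 69.7 CPM in these libraries, against 8.34 CPM in LiCl replicate 2 and 9.63 to 11.2 CPM in the controls, and 5 of the 8 passed both thresholds as higher. *Myog* had 0 counts in one control library. Results on the LPA genes are therefore also given without these 2 libraries, an alternative chosen after seeing the data, in which 1 LiCl library is compared with 3 controls and is assumed to vary like them. The summed level of 8 urothelial markers was also lower with LiCl, at 683 to 720 CPM against 911 to 1195 CPM in the controls, and 4 of them passed both thresholds as lower (1 higher and 7 lower at an adjusted p under 0.05 alone). The 8 markers of the ureteric mesenchyme include *Ptch1*, *Foxf1*, *Bmp4* and *Aldh1a2*. The paper reports changed mesenchymal expression of these genes in longer LiCl cultures, so the marker sum does not measure mesenchymal cells alone. The 8 markers had sums of 4135 to 4569 CPM with LiCl and 5073 to 5581 CPM in the control. Both thresholds were passed by 0 of them (edgeR, 1 higher and 4 lower at an adjusted p under 0.05 alone). Those of endothelium (485 to 596 against 528 to 664 CPM), macrophages (66.4 to 86.7 against 71.7 to 113 CPM) and neural crest and glia (140 to 197 against 191 to 224 CPM) overlapped between the groups. Of these, 1 endothelial and 1 macrophage marker passed both thresholds as lower. At an adjusted p under 0.05 alone, 1 macrophage marker was higher and 4 were lower, and 1 marker each of endothelium and of neural crest and glia was lower. Of all tested genes, 2.74% and 4.59% passed both thresholds as higher and lower, and 21.1% and 22.4% the adjusted p alone. Apart from *Myog*, no marker of these lists was at 0 in any library. The part of these cell types in the differences below was not tested.

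*Lpar3* was 12.3-fold higher after LiCl, whereas *Lpar1*, the most abundant receptor, differed by less than its standard error. Of the enzyme genes, *Plpp1* lay at 0.691 of its control level and *Enpp2* varied more between samples of one group than between the groups. Differences were estimated with edgeR on the counts and are given as log2 fold changes, LiCl minus control, with their standard error (SE). Both thresholds were passed where the adjusted p was under 0.05 and the fold change, in log2, exceeded 1 in either direction. Of the 9 LPA genes, 1 passed both thresholds as higher (2.74% of all tested genes did) and 0 as lower (4.59% of all tested genes). At an adjusted p under 0.05 alone, 1 was higher and 3 were lower, against 21.1% and 22.4% of all tested genes. The 3 lower genes were *Lpar2*, *Plpp1* and *Plpp3*, but *Plpp1* alone was left without control replicate 1, control replicate 3 or LiCl replicate 2, and also without both libraries with high muscle genes. The CPM values of LiCl and control did not overlap in 6 of the 9 genes, with 1 above and 5 below the controls. Of all tested genes, 26.4% lay above and 27.8% below in this way. The median log2 fold change was -0.13 over the 9 genes and -0.01 over all tested genes.

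**Figure D1:**
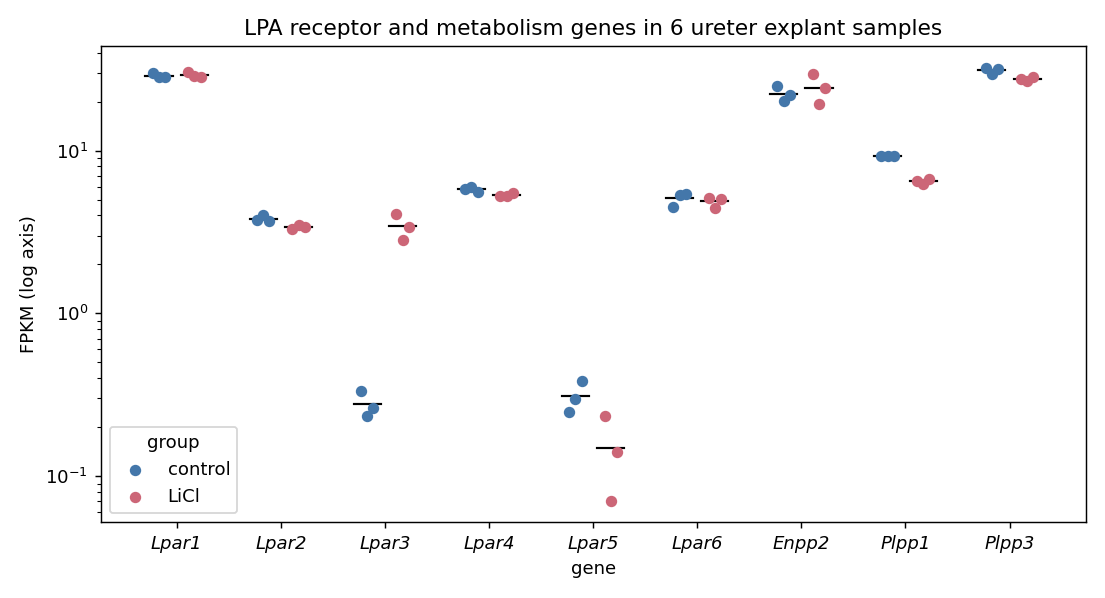
Level of each of the 9 LPA genes in FPKM on a log axis, with 1 point per sample (3 controls, 3 LiCl) and a line at the group mean. *Lpar3* moves from the bottom of the range, at 0.234 to 0.333 FPKM, to 2.83 to 4.10 FPKM with LiCl, while the *Lpar1* points of both groups lie at the same height, between 28.1 and 30.4 FPKM.

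*Lpar3* encodes a receptor of the EDG family that prefers LPA with unsaturated fatty acids and is known for its role in embryo implantation. The 3 controls had 24, 18 and 20 counts, the 3 LiCl samples 314, 195 and 234 counts. Every LiCl sample thus lay far above every control. Scaled to library size, controls averaged 0.689 ± 0.131 CPM and LiCl samples 8.46 ± 1.57 CPM (mean ± SD, n = 3 each). The log2 fold change was 3.62 (SE 0.21). This difference was the 12th largest increase among the 18188 tested genes. It was 3.47 to 3.77 with each sample left out in turn and 3.35 without the 2 libraries with high muscle genes. Among the LiCl samples, *Lpar3* was lowest in replicate 2, the library with low muscle genes, at 6.98 CPM, against 10.1 and 8.30 CPM in replicates 1 and 3. The controls had the same order by replicate number, at 0.835, 0.580 and 0.653 CPM. With the replicate number as a block, the log2 fold change was 3.61 (SE 0.15). What part the muscle signal or the replicate number had in this spread was not tested. In the control, *Lpar3* was near the lower end of what was tested, above 8.69% of the tested genes by FPKM.

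The genes whose log2 CPM over the 6 samples resembled that of *Lpar3* most, by Pearson's r among the 15447 genes that averaged 1 CPM or more, were *Ccdc47*, *Oip5*, *Tars*, *Tnxb* and *Chek1*, with r from 0.999 to 1.00. An r above 0.99 was reached by 285 genes, because the 6 points fall into 2 groups and any gene with a clean difference scores high. Of the 5 genes, *Tnxb*, which encodes an extracellular matrix protein of the tenascin family, had the largest difference, from 1.44 CPM in the control to 32.7 CPM with LiCl. *Oip5*, a centromere gene, had a log2 fold change of 1.15 and the other 3 genes had log2 fold changes from 0.49 to 0.70.

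The sequence in front of the *Lpar3* start site is shown because this gene carried the largest difference, and that of *Lpar2* because *Lpar2* and *Lpar3* had overlapping levels after LiCl. Both are the 250 bases upstream of the start in RefSeq, in the build GRCm38.p6, which differs from the GRCm39 of the counts. *Lpar3* lies on the plus strand at chr3:146220711-146220960 and *Lpar2* on the plus strand at chr8:69822315-69822564. Capitals mark matches on either strand to the letters CTTTGAT (the core bound by TCF/LEF factors), TGANTCA (AP-1) or GGAATG (TEAD).
Lpar3: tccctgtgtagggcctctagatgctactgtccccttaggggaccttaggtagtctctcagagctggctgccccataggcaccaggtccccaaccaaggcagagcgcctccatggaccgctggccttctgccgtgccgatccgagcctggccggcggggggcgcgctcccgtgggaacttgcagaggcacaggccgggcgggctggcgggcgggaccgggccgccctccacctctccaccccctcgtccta
Lpar2: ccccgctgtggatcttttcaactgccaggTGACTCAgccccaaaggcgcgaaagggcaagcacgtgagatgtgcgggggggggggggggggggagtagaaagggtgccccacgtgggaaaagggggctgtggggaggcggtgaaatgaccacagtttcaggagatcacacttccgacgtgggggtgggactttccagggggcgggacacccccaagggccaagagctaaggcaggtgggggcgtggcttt
The *Lpar3* window held none of these letters, had a GC content of 69.6% (above 90.2% of 32851 windows) and 17 CG dinucleotides against a median of 6. The *Lpar2* window held 1 match to TGANTCA, which occurs in 6.75% of all windows. RefSeq windows were at hand for 7 of the 9 genes, 10 windows in all, and not for *Enpp2* and *Plpp1*. The TCF/LEF letters were in 0 of the 10 windows, and in 3.21% of all windows. GGAATG was found only in front of *Lpar6*, and in 12.6% of all windows.

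*Lpar1*, the receptor with the widest known expression, mediates LPA effects on proliferation and migration of mesenchymal cells. The controls had 3741, 3761 and 3768 counts, the LiCl samples 4044, 3427 and 3400 counts. The groups overlapped, and their averages were 125 ± 4.74 CPM for controls and 124 ± 5.01 CPM for LiCl (mean ± SD, n = 3 each). The log2 fold change was 0.00 (SE 0.05) and stayed between -0.03 and 0.03 with each sample left out. At 28.8 ± 0.906 FPKM (SD, n = 3), *Lpar1* lay above 90.5% of the tested genes in the control.

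*Lpar2*, the third EDG-type receptor, had 24.0, 25.5 and 23.5 CPM in the controls and 20.8, 22.2 and 21.2 CPM with LiCl. All LiCl samples were below all controls, but by a small step, with a log2 fold change of -0.19 (SE 0.06). The P2Y-type receptor *Lpar4*, which is known from endothelial cells, had 24.9, 25.6 and 23.8 CPM in the controls and 22.3, 22.3 and 23.2 CPM with LiCl. Here too the groups did not overlap, at a log2 fold change of -0.13 (SE 0.06). *Lpar6*, known for its role in hair growth, had 24.9, 29.2 and 29.3 CPM in the controls and 27.5, 24.0 and 27.3 CPM with LiCl, so the groups overlapped (log2 fold change -0.08, SE 0.08). *Lpar6* overlaps *Rb1* on the opposite strand. *Rb1* had 1023 to 1092 counts in the controls and 739 to 989 with LiCl (log2 fold change -0.23, edgeR adjusted p = 0.0435). The kit was stranded, but the strand setting of the counting is not given in the sources used here, so reads of the 2 genes may not have been kept apart.

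*Lpar5*, a receptor known from immune and epithelial cells, was barely detected. The controls had 11, 14 and 18 counts, the LiCl samples 11, 3 and 6 counts. In CPM the groups did not overlap, at 0.383 to 0.587 in the controls and 0.107 to 0.354 with LiCl, but the log2 fold change of -1.04 had an SE of 0.44. It was -0.72 to -1.54 with each sample left out. Without LiCl replicate 1, at -1.54, the gene passed both thresholds as lower, but that library held the highest LiCl count, equal to the lowest control count. Only the controls had at least 10 counts in all of their samples, and *Lpar5* was not tested where this was required of every sample. At this depth, the size of the *Lpar5* difference was not resolved.

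**Figure D2:**
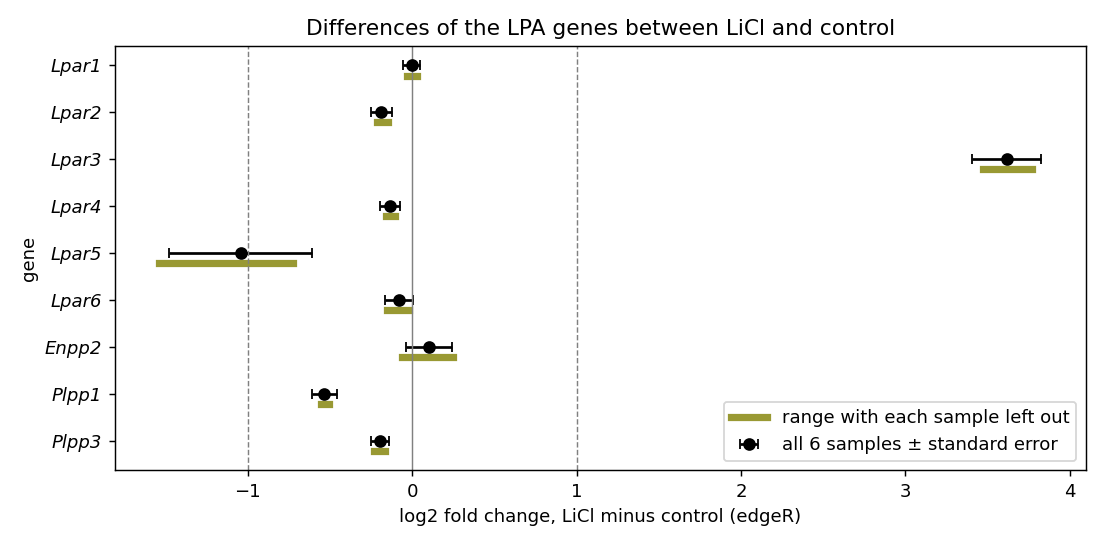
Log2 fold change of each LPA gene, LiCl minus control, as a point with a bar of 1 standard error, and below it the range with each of the 6 samples left out. Dashed lines mark -1 and 1. *Lpar3* lies at 3.62, *Lpar5* has the widest range, and the other 7 genes lie between -0.53 and 0.10.

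Levels of different genes were compared per length, in FPKM. In the control the receptors ranked *Lpar1*, *Lpar4*, *Lpar6* and *Lpar2*, with ranges that did not overlap between neighbours, followed by *Lpar5* and *Lpar3*, whose ranges did (0.248 to 0.384 and 0.234 to 0.333 FPKM). With LiCl, *Lpar3* reached 2.83 to 4.10 FPKM and overlapped with *Lpar2* at 3.29 to 3.51 FPKM, while the order of *Lpar1*, *Lpar4* and *Lpar6* above them was as in the control. Of the summed FPKM of the 6 receptors, *Lpar3* made up 0.749%, 0.532% and 0.601% in the controls and 8.49%, 6.33% and 7.40% in the LiCl samples. *Lpar1* made up 65.3% ± 1.65 (SD, n = 3) in the control and 62.8% ± 1.09 (SD, n = 3) with LiCl, with ranges that overlapped (63.8% to 67.1% and 61.8% to 63.9%). The sum itself was 44.0 ± 0.375 FPKM (SD, n = 3) in the control and 46.2 ± 1.90 FPKM (SD, n = 3) with LiCl. The EDG-type receptors together had 32.3 to 33.9 FPKM in the control and 34.9 to 37.7 FPKM with LiCl, and the P2Y-type receptors 10.6 to 11.7 and 9.77 to 10.7 FPKM.

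**Figure D3:**
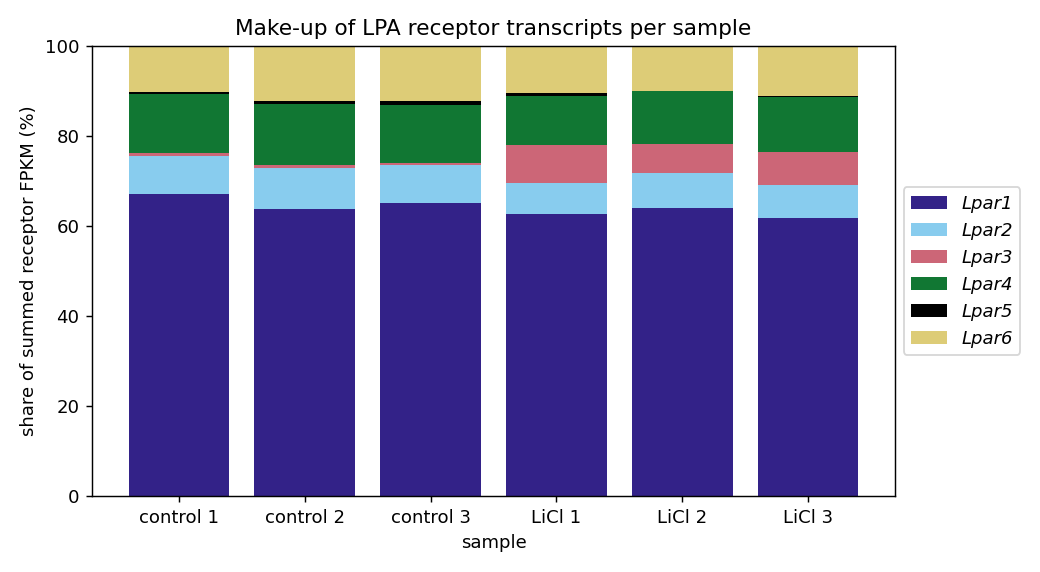
Share of each receptor in the summed FPKM of the 6 LPA receptors, in percent, with 1 stacked bar per sample. *Lpar1* fills 61.8% to 67.1% of every bar, and *Lpar3* is a thin line in the controls and a band of 6.33% to 8.49% with LiCl.

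*Enpp2* had 146, 118 and 129 CPM in the controls and 171, 111 and 139 CPM in the LiCl samples. The LiCl samples held both the highest and the lowest value of the 6, and the log2 fold change was 0.10 (SE 0.14). Its sign depended on single libraries, with -0.06 without LiCl replicate 1 and up to 0.25 without another sample. Without the 2 libraries with high muscle genes, in which *Enpp2* was also higher than in LiCl replicate 2, the log2 fold change was -0.22. Both groups had the same order by replicate number. With the replicate number as a block, the log2 fold change was 0.09 (SE 0.07). What part the muscle signal or the replicate number had was not tested. At 22.3 ± 2.28 FPKM (SD, n = 3), the gene stood above 86.5% of the tested genes in the control.

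*Plpp1* had 16.5, 16.2 and 16.3 CPM in the controls and 11.3, 10.9 and 11.7 CPM in the LiCl samples. The samples of each group lay close together and the groups were well apart, at a log2 fold change of -0.53 (SE 0.08). It was -0.55 to -0.50 with each sample left out and -0.58 without the 2 libraries with high muscle genes. *Plpp1* overlaps *Mtrex*, an RNA helicase gene, on the opposite strand. *Mtrex* had 2891 to 3073 counts in the controls and 2996 to 3608 with LiCl (log2 fold change 0.17, edgeR adjusted p = 0.0201). As for *Lpar6* and *Rb1*, the strand setting is not given, so reads of *Plpp1* and *Mtrex* may not have been kept apart. The more abundant *Plpp3*, a phosphatase needed for vascular development, had 104, 93.5 and 102 CPM in the controls and 87.1, 84.6 and 89.5 CPM with LiCl. Its groups did not overlap either, at a smaller log2 fold change of -0.20 (SE 0.05). Of the FPKM of both phosphatase genes, *Plpp1* made up 22.3% to 23.9% in the controls and 18.9% to 19.1% with LiCl. Without the 2 libraries with high muscle genes, the log2 fold changes of the genes not given so far were -0.02 for *Lpar1*, -0.12 for *Lpar2*, -0.14 for *Lpar4*, -2.09 for *Lpar5*, -0.20 for *Lpar6* and -0.23 for *Plpp3*. The value of *Lpar5* then rests on a single LiCl library with 3 counts. The ratio of *Enpp2* to the sum of *Plpp1* and *Plpp3* in FPKM was 0.552 ± 0.0386 (SD, n = 3) in the control and 0.712 ± 0.143 (SD, n = 3) with LiCl, with values from 0.523 to 0.595 and from 0.584 to 0.867 that overlapped.

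Other genes of LPA metabolism and their relatives were listed as 22 genes, of which 19 were tested. This list and those that follow were also chosen with earlier results of these data known. Their adjusted p therefore describe single genes and do not test the lists. Here 0 genes passed both thresholds as higher and 1 as lower, and the median log2 fold change was 0.02. At an adjusted p under 0.05 alone, 4 were higher, 3 lower and 12 neither. Of all tested genes, 2.74% and 4.59% passed both thresholds as higher and lower, and 21.1% and 22.4% the adjusted p alone. The counts of this list are therefore no result about it. The gene that passed both was *Liph*, which encodes a phospholipase whose LPA, made at the membrane, acts on the receptor LPAR6 in hair follicles. The controls had 2.09, 2.64 and 1.93 CPM, the LiCl samples 0.998, 1.22 and 1.10 CPM, and the log2 fold change was -1.01 (SE 0.21, edgeR adjusted p = 0.00459). That value lies on the threshold, and *Liph* no longer passed it in 11 of 17 alternatives, DESeq2 among them. The alternative without a fold change minimum could not lose it. *Gpat4*, which makes intracellular LPA for glycerolipid synthesis, was higher, with 215, 211 and 215 CPM against 169, 171 and 168 CPM and a log2 fold change of 0.34 (edgeR adjusted p = 0.000195). The other abundant members, *Plppr3* and *Agpat3*, had log2 fold changes of 0.02 and -0.09 with edgeR adjusted p of 0.872 and 0.199. Of the untested genes, *Pla1a*, a phospholipase that also makes LPA, had 1 to 8 counts, *Lipi* at most 1 count and *Gpat3* 6 to 17 counts.

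Among 11 genes for S1P receptors and enzymes, the nearest relatives of the EDG-type LPA receptors, 9 were tested. Both thresholds were passed by 0 of them with edgeR and 0 with DESeq2. In edgeR, 2 were higher and 3 lower at an adjusted p under 0.05 alone, and the same numbers at an unadjusted p under 0.05. Of all tested genes, 21.1% were higher and 22.4% lower at an adjusted p under 0.05 alone. The 3 lower genes were the tested receptors. *S1pr3*, the most abundant of these, had 284, 269 and 274 CPM in the controls and 241, 238 and 226 CPM with LiCl (log2 fold change -0.23, edgeR adjusted p = 0.00328). *S1pr2* had a log2 fold change of -0.33 (edgeR adjusted p = 0.000371), and *S1pr1*, known from endothelium and named after its values were seen, one of -0.31 (edgeR adjusted p = 0.0488). *S1pr4* and *S1pr5* had at most 11 and 3 counts in a library. *Sgpl1*, the lyase that degrades S1P, had a log2 fold change of 0.07 (edgeR adjusted p = 0.227).

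Of 15 genes known as targets of YAP or SRF, all were tested. Both thresholds were passed by 0 genes as higher and 2 as lower, against 2.74% and 4.59% of all tested genes. At an adjusted p under 0.05 alone, 3 were higher and 8 lower, against 21.1% and 22.4% of all tested genes. The median log2 fold change was -0.36. *Ccn2*, a secreted matrix-associated protein gene and a standard YAP target, reached 672, 808 and 685 counts without LiCl but 169, 238 and 247 counts with it (log2 fold change -1.66, SE 0.16, edgeR adjusted p = 5e-05). *Egr1*, an immediate early transcription factor gene, had 62.1, 55.1 and 50.8 CPM in the controls and 23.6, 23.0 and 28.4 CPM with LiCl, at a log2 fold change of -1.16 (SE 0.10, edgeR adjusted p = 2.5e-05). The abundant members *Axl* and *Vcl* had log2 fold changes of -0.42 and -0.37 (edgeR adjusted p of 0.000353 and 0.00718), and *Ajuba* one of 0.11 (edgeR adjusted p = 0.112). The 3 genes higher at an adjusted p under 0.05 were *Fos*, *Fosb* and *Srf*, named after their values were seen, with log2 fold changes of 0.74, 0.75 and 0.24.

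**Figure D4:**
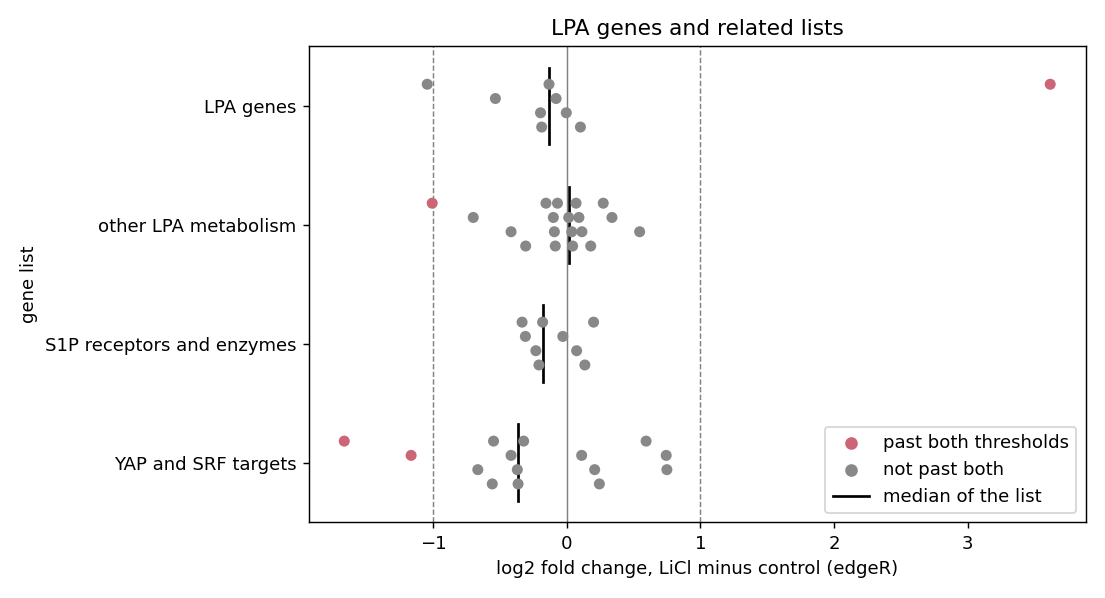
Log2 fold change, LiCl minus control, of the tested genes of the 9 LPA genes and of 3 related lists, with 1 point per gene and a line at the median. Red points passed both thresholds, dashed lines mark -1 and 1. *Lpar3*, at 3.62, stands alone on the right, and *Liph*, *Ccn2* and *Egr1* are the red points on the left.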

How the data were processed

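Bulk RNA-Seq was available for wildtype ureters explanted at E12.5, in 3 control and 3 LiCl samples grouped by the labels. Per the labels, libraries were made with a stranded poly-A kit. The authors deposited raw counts per Ensembl gene and FPKM values per sample. Reads were aligned to GRCm39 and counted with featureCounts. The paper names HISAT2 as aligner, and the submitters' processing notes name fastp 0.23, STAR 2.7, featureCounts 2.0 and DESeq2 1.40. The annotation release is not given in the sources used here. The deposited FPKM equal the counts divided by DESeq2 size factors and a whole-number gene length in 100% of 13480 genes with over 50 counts per sample, within 0.1 bases, so they are not a second measurement. Symbols came from GENCODE vM21 (52073 of 56748 identifiers).

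The raw counts entered the quasi-likelihood test of edgeR 4.0.16 (R 4.3.3) after TMM scaling and its filterByExpr function, and p-values were adjusted by Benjamini-Hochberg over all 18188 genes kept. CPM are counts scaled to the TMM library size. SE were derived from the fold change and F. The members and lists were chosen with earlier results of these data known. Named were the 9 LPA genes, genes overlapping them, the genes most like *Lpar3* and, from each list, genes passing both thresholds and the 3 most abundant. Alternatives were other scalings, filters, DESeq2 1.42.0, limma 3.58.1 on log2 FPKM, a replicate block, samples left out and no fold change minimum. Scripts were tested on simulated data. One further gene list was analysed and is not reported here.

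No sample was a copy of another, with chi-square values per degree of freedom of 5.93 to 14.5 within groups. With 3 samples against 3, the precision of single genes rests on the fit across all genes.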

Additional observations from a re-analysis of the deposited data

How the results depend on the processing

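As a description, the log2 fold change of *Lpar3* was 3.35 to 3.77 over the alternatives on counts and 1.79 to 3.23 on log2 FPKM, where the pseudocount shrinks low genes. Over the same alternatives *Plpp1* lay between -0.58 and -0.46, *Plpp3* between -0.23 and -0.16 and *Lpar2* between -0.22 and -0.12. An adjusted p under 0.05 was kept by *Plpp3* in 11 of 17 alternatives and by *Lpar2* in 3 of 17. The alternative without a fold change minimum counts among these but is the main fit itself, so its adjusted p could not differ. The count of 3 LPA genes lower at this threshold alone was 1 to 3 with each sample left out, and *Lpar2* was in none of these sets. The 3 genes without LiCl replicate 1 were *Lpar5*, *Plpp1* and *Plpp3*. The count of LPA genes passing as lower, 0, was 0 to 1 with each sample left out (*Lpar5*, without LiCl replicate 1). For the other LPA enzymes, the count of 1 (*Liph*) became 0 with RLE size factors, DESeq2, no filter, the replicate block, each limma setting and without the 2 libraries with high muscle genes, and was 0 to 1 with each sample left out (0 without control replicate 2, LiCl replicate 1 or LiCl replicate 3).

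Without a fold change minimum, 3844 genes were higher and 4071 lower, with 3 LPA genes lower. Of the other LPA metabolism genes and their relatives, 4 were higher and 3 lower. Among S1P genes these counts were 2 and 3, and among YAP and SRF targets 3 and 8. With limma on log2(FPKM + 1), 176 and 141 genes passed as higher and lower, on log2(FPKM + 0.1) 328 and 413, and on log2(FPKM + 1) without filter 168 and 136. Apart from the pseudocount, the cause was not tested.

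Whether samples with one replicate number shared an origin is not given in the sources used here. Over all tested genes, the correlations of same-numbered deviations were 0.01, -0.14 and 0.12. These values cannot decide it, since single genes may still follow the replicate number. *Lpar3* and *Enpp2* had the same order by replicate number in both groups. With the replicate block, 478 of all tested genes passed as higher and 801 as lower, 1 LPA gene passed as higher, *Liph* no longer passed, and *Lpar2* was no longer under an adjusted p of 0.05, which left 2 LPA genes lower at that threshold alone. Depth limits *Lpar5*, with 3 to 18 counts.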
